A study of Mus musculus with 12 samples.

Results

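The loss of the receptor FLT3 was examined in cDC1, the branch of conventional dendritic cells that takes up dead cells and presents their antigens to CD8 T cells. The samples were chosen by their labels: 2 arrays of Flt3 KO cDC1 and 2 arrays of WT cDC1, which is 4 of the 12 arrays of the series. Each array was a GeneChip hybridised with labelled RNA from dendritic cells sorted from mouse spleen, which was digested with enzymes, from mice at steady state. The other arrays used here for comparison were Flt3 KO cDC2 and WT cDC2, the second branch of conventional dendritic cells, and Flt3L KO cDC1, from mice without the ligand of FLT3, with 2 arrays each. The labels name a knockout by its gene alone. The labels used here give neither the deleted part of Flt3 nor the strain, substrain, age and sex of the mice, and they do not say whether mice were pooled. The arrays of a group are labelled as biological replicates, and the p-values rest on the spread within these pairs of arrays. A knockout sample holds only the cDC1 that had formed without the receptor, and in such bulk samples fewer cells of a type and less RNA per cell cannot be told apart.

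FLT3 is a receptor tyrosine kinase of the same family as KIT and the M-CSF receptor. It is present on early progenitors of blood cells and, unusually for that family, stays on dendritic cells through to their mature form. Binding of its ligand joins receptors into pairs, and the signal runs through RAS and MAP kinases, through PI3 kinase and mTOR, and through STAT proteins. In mouse spleen the signal is best known for setting how many dendritic cells form and divide, and cDC1 depend in addition on the transcription factors IRF8, BATF3 and ID2.

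Each probe set had an intensity on every array, which is the brightness of its probes on a linear scale. After dim genes were left out, 14953 genes were tested with limma, and a gene was called where its p-value, adjusted by the Benjamini-Hochberg method over all of them, was under 0.05. Log2 differences between Flt3 KO cDC1 and WT cDC1 had a median standard error (SE) of 0.09, a precision set by the small number of arrays. Replicate 1 of WT cDC1 stood apart. Its intensities had a lower quartile of 25.7 and an upper quartile of 198, while the other arrays had lower quartiles of 23.3 to 24.3 and upper quartiles of 204 to 215. The log2 values of the WT cDC1 replicates differed by an SD of 0.21 across genes, while the SD lay between 0.14 and 0.16 in the other groups. The median log2 change of Flt3 KO cDC1 against WT cDC1 was -0.09 in the 3739 dimmest genes and 0.04 in the 3738 brightest, and -0.03 and 0.01 in these genes without WT replicate 1. Results below are therefore also given without that array where it matters.

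The targeted gene was examined first, as a check of the labels. Flt3 had intensities of 357 and 370 in Flt3 KO cDC1, against 2333 and 2265 in WT cDC1. The groups lay far apart, and the knockout kept 15.8% of the WT mean. The log2 change was -2.66 ± 0.07 (SE), with an adjusted p of 5.26e-10 in limma, the smallest of all genes tested. Since the deleted part of the gene and the place of the probes are not known here, what the remaining signal measures was not tested. Flt3l, which encodes the ligand, had intensities of 124 and 124 in Flt3 KO cDC1, against 114 and 113 in WT cDC1, a log2 difference of 0.13 ± 0.08 (SE) with an adjusted p of 0.49. In Flt3L KO cDC1, where Flt3l is the target by label, its intensities were 119 and 129. The log2 difference from WT cDC1 was 0.13 ± 0.08 (SE; adjusted p = 0.403 in limma). These values thus did not show the loss of Flt3l, and the reason was not tested.

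Outside Flt3 itself, few genes were called between cDC1 that formed without the receptor and WT cDC1. With 2 arrays a group, the number of genes that differ is not settled by these calls. In all 12 genes were called. Nnt, Cd209a, Gpr141, Tmem176a, Adam11, Rfc3, Lpp and Fcer1g rose in Flt3 KO cDC1, which is 8 genes or 0.0535% of those tested. Flt3, Lnx2, Hsph1 and Polr1d fell, which is 4 genes or 0.0268%. At an unadjusted p under 0.05 there were 1873 genes, 872 higher and 1001 lower, and only 33 genes differed by more than 1.5-fold. The 5315 probe sets with several gene symbols or none, tested apart, gave 0 calls in limma, with 431 at an unadjusted p under 0.05. Flt3, Nnt and Lnx2 were called under each of the 12 alternative settings tried, and the other 9 genes under 4 to 9 of them. Without WT replicate 1 the calls numbered 4, these 3 genes and Arhgap42, and without WT replicate 2, which leaves the array that stood apart as the lone WT cDC1 sample, they numbered 1132. Without Flt3 KO replicate 1 they numbered 3, and without Flt3 KO replicate 2 they numbered 5, with Adam11 and Gpr141 beside the same 3.

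**Figure D1:**
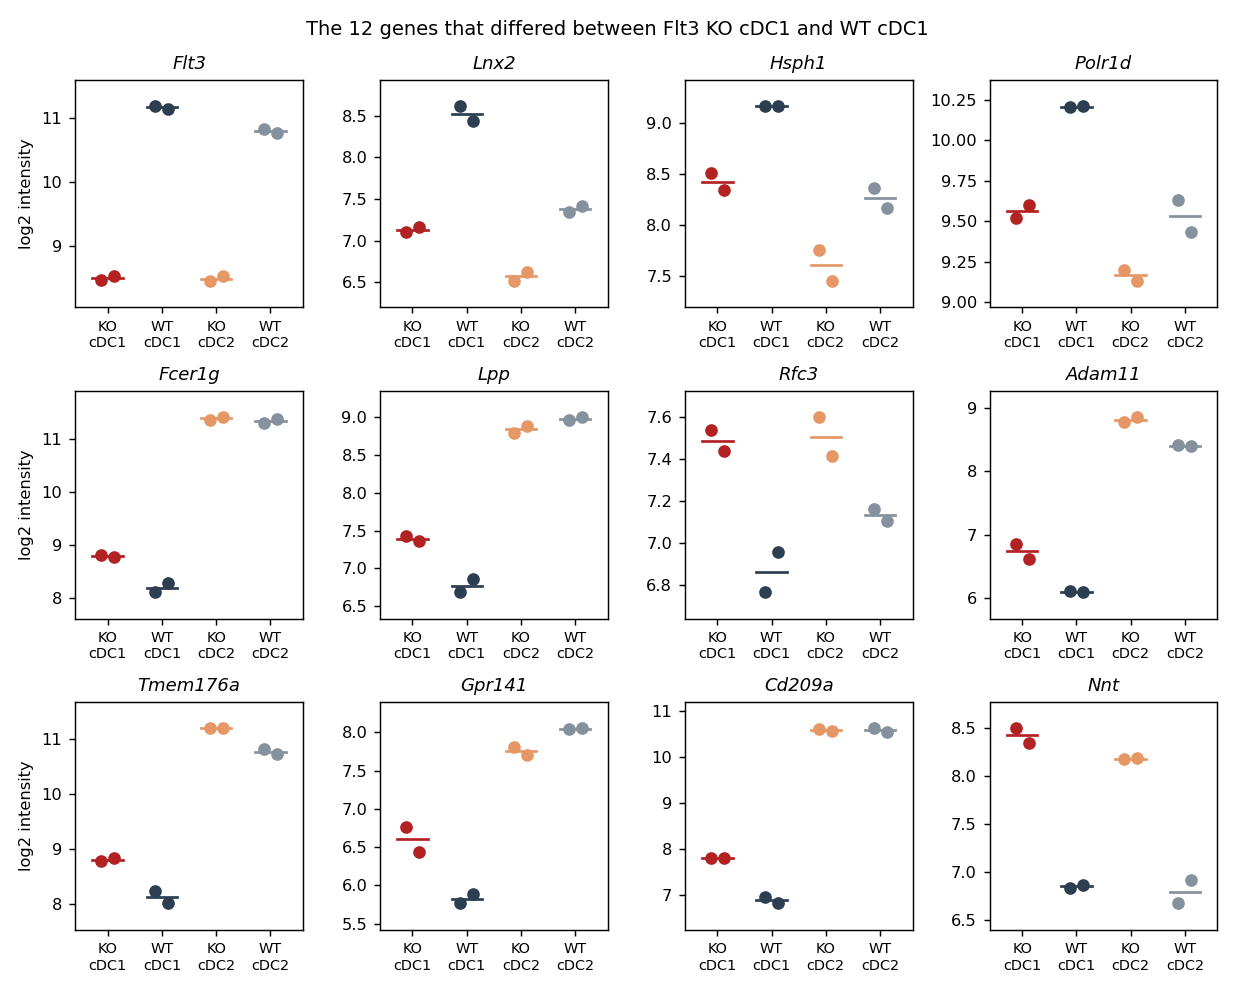
Log2 intensity of the 12 called genes on each array (points) with the group mean (line), for Flt3 KO and WT cDC1 and, at the right of each panel, Flt3 KO and WT cDC2. In every panel the 2 Flt3 KO cDC1 arrays lie on one side of the 2 WT cDC1 arrays; Flt3, Lnx2 and Nnt also separate widely in cDC2, and Cd209a, Fcer1g, Lpp, Gpr141, Adam11 and Tmem176a lie far higher in cDC2 than in cDC1.

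**Figure D2:**
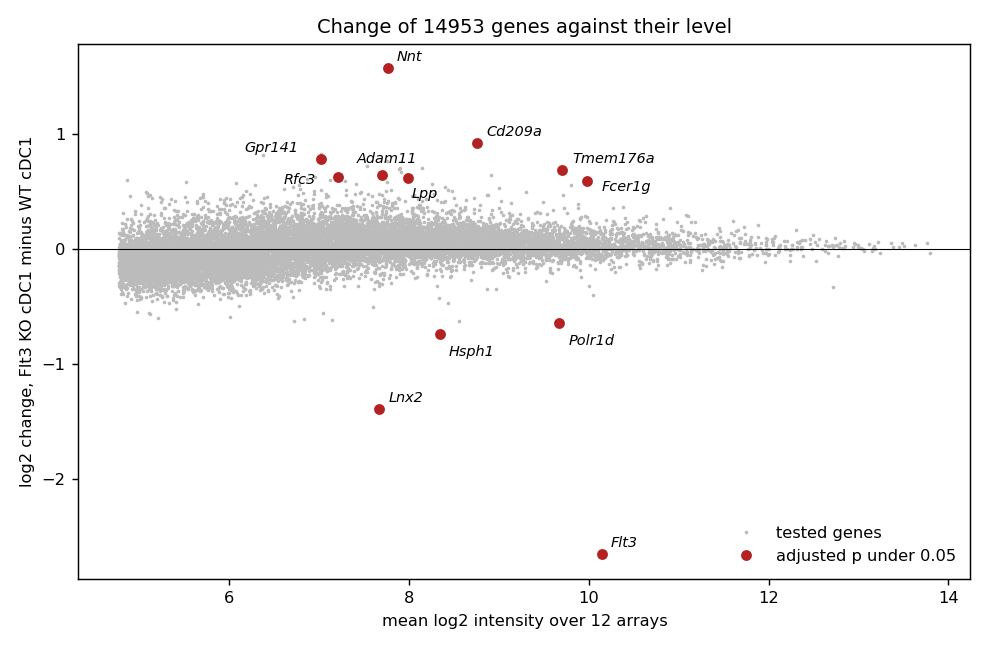
Log2 change of Flt3 KO cDC1 against WT cDC1 (vertical axis) for the 14953 tested genes, against their mean log2 intensity over the 12 arrays (horizontal axis), with the 12 called genes in red. Flt3 and Lnx2 lie far below the cloud of genes and Nnt far above it, while the other called genes lie at its edge; the cloud itself sits slightly below 0 for dim genes and slightly above 0 for bright ones.

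All of the called genes that fell belong to 1 stretch of chromosome 5. Counted in the gene order of RefSeq among tested genes, Polr1d lies 5 places and Lnx2 6 places from Flt3 on one side, and Hsph1 lies 13 places from it on the other. Rfc3, which rose, lies 20 places away on the same side as Hsph1. Among the 10 tested genes on either side of Flt3, 2 of 20 were called, both lower. Among up to 50 on either side, 4 of 70 were called, 3 lower and 1 higher, against the shares of 0.0268% and 0.0535% among all tested genes. The gene nearest to Flt3 on each side was not called: Urad, an enzyme of uric acid breakdown, differed by -0.36 ± 0.14 (SE, log2; adjusted p = 0.353), and Pan3, a part of a deadenylase that trims mRNA tails, by 0.03 ± 0.08 (adjusted p = 0.889). The strain origin of the chromosome around Flt3 is not in the labels, and its part in these changes was not tested.

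Lnx2 encodes a ubiquitin ligase that binds the cell fate protein NUMB. Its intensities were 138 and 143 in Flt3 KO cDC1, against 393 and 346 in WT cDC1. The groups were well apart, and no other gene but Flt3 fell further. The log2 change was -1.40 ± 0.12 (SE) with an adjusted p of 0.00015, and -1.30 without WT replicate 1. Polr1d encodes a subunit shared by RNA polymerases I and III. It had intensities of 734 and 778 in Flt3 KO cDC1, against 1181 and 1187 in WT cDC1, with no overlap and a log2 change of -0.65 ± 0.08 (SE; adjusted p = 0.0129). A second, dimmer probe set of Polr1d changed by -0.14, so its probe sets disagree, and with their mean the gene was not called.

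Hsph1 encodes a large heat shock protein that helps HSP70 to release its client proteins. It had intensities of 364 and 325 in Flt3 KO cDC1, against 575 and 575 in WT cDC1. Both knockout arrays were lower, by a log2 change of -0.74 ± 0.12 (SE; adjusted p = 0.0427). It was the only one of 23 tested heat shock genes to be called, with a list median of -0.02. Of these 23 genes 2 had both Flt3 KO arrays above both WT arrays and 7 had both below. The shares were 20.4% and 20.3% of all tested genes, and 32.0% and 9.76% of the 3738 brightest. Hspa8, Hsp90aa1 and Dnajb1, abundant chaperones named here after their values were seen, differed by -0.11, 0.05 and 0.01. Rfc3 encodes a subunit of the clamp loader of DNA replication. It had intensities of 186 and 173 in Flt3 KO cDC1, against 109 and 124 in WT cDC1, and rose by 0.63 ± 0.10 (SE, log2; adjusted p = 0.0427). Of the 41 tested genes of DNA replication and cell cycle Rfc3 was the only one called. The median of that list was 0.08, and -0.03 without WT replicate 1, so its sign turned with that array.

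**Figure D3:**
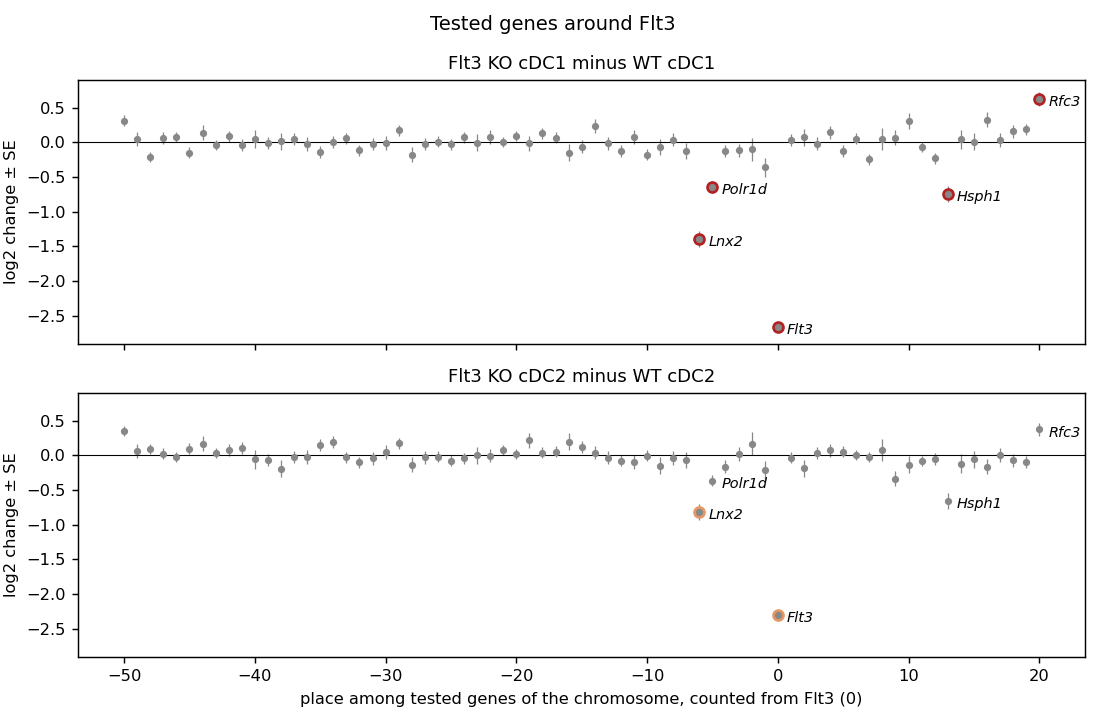
Log2 change ± SE (vertical axis) of Flt3 and the tested genes around it, placed by their order on the chromosome (horizontal axis), for Flt3 KO minus WT in cDC1 (upper panel) and cDC2 (lower panel); coloured rings mark called genes. Around Flt3 only Lnx2, Polr1d, Hsph1 and Rfc3 leave the band near 0 in cDC1, and these 4 genes lie on the same side of 0 in cDC2, where Lnx2 alone of them was called.

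Lnx2 and Polr1d, the pair that fell together, are transcribed away from each other, and their annotated starts lie 774 bases apart in RefSeq on build GRCm38.p6. The windows of 300 bases around these starts (250 before to 50 after, each on the strand of its gene) are shown because both genes fell, together with that of Tmem176a, which rose and has the same head-to-head layout with Tmem176b. Lnx2 is at chr5:147076523-147076822 (minus strand), Polr1d at chr5:147077096-147077395 (plus strand) and Tmem176a at chr6:48841233-48841532 (plus strand). Tmem176a has another annotated start, whose window at chr6:48841406-48841705 is not shown. A search on both strands for TTCNNNGAA (the site bound by STAT dimers), GAGGAA (the core bound by the myeloid factor PU.1) and CCAAT gave the matches in capitals, which appear as the reverse complement where they are on the other strand.
Lnx2: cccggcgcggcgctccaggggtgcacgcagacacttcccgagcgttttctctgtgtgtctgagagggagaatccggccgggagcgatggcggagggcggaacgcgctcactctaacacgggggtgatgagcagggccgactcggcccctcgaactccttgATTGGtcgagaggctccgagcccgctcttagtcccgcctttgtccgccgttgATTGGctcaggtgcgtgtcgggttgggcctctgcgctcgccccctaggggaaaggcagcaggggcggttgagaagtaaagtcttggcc
Polr1d: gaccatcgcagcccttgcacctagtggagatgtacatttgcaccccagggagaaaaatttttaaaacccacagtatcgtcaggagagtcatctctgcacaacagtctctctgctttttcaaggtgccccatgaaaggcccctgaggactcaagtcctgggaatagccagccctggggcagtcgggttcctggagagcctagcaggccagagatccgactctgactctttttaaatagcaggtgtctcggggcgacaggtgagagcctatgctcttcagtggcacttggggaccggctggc
Tmem176a: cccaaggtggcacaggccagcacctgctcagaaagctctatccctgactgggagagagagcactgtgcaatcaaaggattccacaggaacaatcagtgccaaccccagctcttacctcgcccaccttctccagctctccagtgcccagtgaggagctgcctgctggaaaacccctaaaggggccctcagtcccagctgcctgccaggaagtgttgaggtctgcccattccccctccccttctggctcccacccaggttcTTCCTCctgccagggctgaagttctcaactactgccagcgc
The window of Lnx2 held CCAAT on the opposite strand in 2 places, starting 90 and 38 bases before the start of the gene. The window of Tmem176a shown held GAGGAA on the opposite strand, 9 bases after the start used for it. TTCNNNGAA was in none of them, and Polr1d had no match to any motif. Among 32851 windows of this length, 8.3% held TTCNNNGAA, 28.3% GAGGAA and 37.4% CCAAT, so these matches are common, and they describe the windows only.

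Nnt rose more than any other gene. It encodes a transhydrogenase of the inner mitochondrial membrane, which makes NADPH from NADH for the defence against peroxides. Its intensities were 362 and 327 in Flt3 KO cDC1, against 115 and 117 in WT cDC1, a fold of 2.97 and a log2 change of 1.57 ± 0.09 (SE; adjusted p = 2.29e-06). In cDC2 they were 291 and 291 in Flt3 KO, against 102 and 121 in WT, a change of 1.39 with an adjusted p of 1e-05. Flt3L KO cDC1, which carry another targeted gene, had 323 and 320. Every knockout array was thus well above every WT array. As background, mice of the C57BL/6J substrain carry a natural deletion within Nnt, which some other C57BL/6 substrains lack; the substrain of each group is not known here, and its part in the difference was not tested. In a list of 15 tested genes of mitochondrial redox balance Nnt was the only one called, and the list median was 0.00. Prdx3, a mitochondrial peroxiredoxin, differed by 0.17 ± 0.08 (SE, log2; adjusted p = 0.423), and Gsr, which reduces glutathione, by 0.18 ± 0.09 (adjusted p = 0.425).

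Most of the genes that rose were brighter in WT cDC2 than in cDC1. Of the 8 genes that rose, 7 had both WT cDC2 arrays above both WT cDC1 arrays, and 6 had both WT cDC2 arrays above both Flt3 KO cDC1 arrays, against 27.4% and 31.5% of all tested genes. The first of these counts uses the WT cDC1 arrays, and the second the Flt3 KO cDC1 arrays, by which the genes were called; a low WT cDC1 value favours both the call and the first count, so the counts are a description only. Cd209a, a C-type lectin related to human DC-SIGN and characteristic of splenic cDC2, had intensities of 225 and 223 in Flt3 KO cDC1, against 124 and 113 in WT cDC1. The Flt3 KO arrays were alike and clear of the WT arrays, and the log2 change was 0.92 ± 0.13 (SE; adjusted p = 0.0165), or 0.99 without WT replicate 1. In cDC2 the gene had 1562 and 1517 in Flt3 KO and 1587 and 1491 in WT, so the level reached in Flt3 KO cDC1 stayed far below that of cDC2. Fcer1g encodes the signalling chain of several Fc and lectin receptors. It had 447 and 436 in Flt3 KO cDC1, against 276 and 311 in WT cDC1, and rose by 0.59 ± 0.09 (SE, log2; adjusted p = 0.0265), or 0.51 without WT replicate 1. Tmem176a encodes a membrane protein of endosomes that is abundant in dendritic cells. It had 438 and 454 in Flt3 KO cDC1, against 300.0 and 258 in WT cDC1, and rose by 0.68 ± 0.11 (SE, log2; adjusted p = 0.0427). Its neighbour and partner Tmem176b had 406 and 485 in Flt3 KO cDC1, against 335 and 274 in WT cDC1, a difference of 0.55 ± 0.11 that did not pass (adjusted p = 0.12).

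These 3 called genes were the only ones called among 34 tested cDC2 genes. In that list 14 genes had both Flt3 KO arrays above both WT arrays and 3 had both below. The shares were 20.4% and 20.3% of all tested genes, and 32.0% and 9.76% of the 3738 brightest. The list median was 0.08, and 0.12 without WT replicate 1. At an unadjusted p under 0.05 there were 12 of the 34, where 1873 of the 14953 tested genes were. Earlier results of these data were known when the list was chosen, so its counts are a description only. The defining surface markers of cDC2 were not among the called genes. Sirpa, a receptor for the signal CD47, had 101 and 113 in Flt3 KO cDC1, against 109 and 103 in WT cDC1. Itgam, which encodes the integrin chain CD11b, had 51.5 and 58.3 in Flt3 KO cDC1, against 49.3 and 56.4 in WT cDC1, and Clec4a4, which encodes the lectin DCIR2, had 13.1 and 9.93 in Flt3 KO cDC1, against 10.8 and 13.8 in WT cDC1. In each of these the groups overlapped. The transcription factor gene Irf4, needed for the function of cDC2, had 143 and 169 in Flt3 KO cDC1, against 114 and 101 in WT cDC1, a difference of 0.54 ± 0.12 (SE, log2) that did not pass (adjusted p = 0.173). Cd4 differed by -0.35 ± 0.10 (adjusted p = 0.261).

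Gpr141, Lpp and Adam11 make up the other rises. Gpr141, a G protein-coupled receptor without a known ligand, had 109 and 86.9 in Flt3 KO cDC1, against 54.4 and 59.4 in WT cDC1. The arrays did not overlap, and the log2 change was 0.78 ± 0.10 (SE; adjusted p = 0.0136). Lpp, a LIM domain protein of cell adhesion sites, had 171 and 164 in Flt3 KO cDC1, against 103 and 116 in WT cDC1, with a log2 change of 0.62 ± 0.09 (SE; adjusted p = 0.0165). Its other 2 probe sets changed by 0.22 and 0.28, and with the mean of all 3 it was not called. Adam11, a member of the ADAM family without protease activity, had 116 and 98.8 in Flt3 KO cDC1, against 69.2 and 68.4 in WT cDC1. It rose by 0.64 ± 0.08 (SE, log2; adjusted p = 0.0136), and by 0.65 without WT replicate 1. Without WT replicate 1, Cd209a, Gpr141, Tmem176a, Adam11, Rfc3, Lpp, Fcer1g, Hsph1 and Polr1d were no longer called, though their log2 changes kept their direction and lay between -0.74 and 0.99.

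No cDC1 gene passed. Of 31 tested cDC1 genes 0 were called by limma, with 2 at an unadjusted p under 0.05. In this list 11 had both Flt3 KO arrays above both WT arrays and 3 had both below, with a median of 0.04. The shares were 20.4% and 20.3% of all tested genes, and 32.0% and 9.76% of the 3738 brightest. Xcr1, the chemokine receptor that marks cDC1, had 3020 and 2885 in Flt3 KO cDC1, against 2799 and 2956 in WT cDC1. Clec9a, the receptor for the actin of dead cells, had 3094 and 2852 in Flt3 KO cDC1, against 2832 and 3035 in WT cDC1, and Irf8, the transcription factor gene on which cDC1 depend, had 3098 and 2867 in Flt3 KO cDC1, against 3009 and 3090 in WT cDC1. The groups overlapped for all of these, as they did for Batf3, Cd8a, Wdfy4 and Naaa, whose log2 differences lay between -0.06 and 0.04. Itgae had the largest difference of the list. It encodes CD103, an integrin chain that binds E-cadherin, and had 354 and 358 in Flt3 KO cDC1, against 459 and 598 in WT cDC1. The difference was -0.56 ± 0.12 (SE, log2) and did not pass (adjusted p = 0.156); it was -0.75 without WT replicate 1. Among genes shared by all conventional dendritic cells, Zbtb46, their common transcription factor gene, differed by -0.10 ± 0.12, Itgax by 0.11 ± 0.07 and H2-Aa by 0.00 ± 0.07 (SE, log2).

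The genes through which FLT3 signals did not pass, apart from the receptor itself. Of the 41 tested genes of the FLT3 pathway, Flt3 was the only one called. Without it 13 of 40 had both Flt3 KO arrays above both WT arrays and 5 had both below, with a median of 0.04. The shares were 20.4% and 20.3% of all tested genes, and 32.0% and 9.76% of the 3738 brightest. The related receptor genes Kit and Csf1r, named after their values were seen, differed by 0.06 and 0.04. Among adaptors and mTOR partners, Gab2 differed by 0.34 ± 0.11 (adjusted p = 0.275), Rptor by 0.22 ± 0.08 (adjusted p = 0.309) and Sos2 by 0.19 ± 0.08 (SE, log2; adjusted p = 0.383). The genes that MAP kinases induce include both their own inhibitors and early transcription factors, and 0 of 32 were called in limma, with 6 at an unadjusted p under 0.05. Spry4, a feedback inhibitor of receptor kinases, had 39.9 and 37.8 in Flt3 KO cDC1, against 52.3 and 46.4 in WT cDC1, a difference of -0.34 ± 0.08 (adjusted p = 0.197). Jun, a part of the transcription factor AP-1, had 1171 and 1164 in Flt3 KO cDC1, against 849 and 982 in WT cDC1, a difference of 0.35 ± 0.09 (adjusted p = 0.222). The median of that list was 0.07.

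STAT and SOCS genes and cytokine receptors likewise gave 0 calls in limma in 23 and 29 tested genes, with 4 and 5 at an unadjusted p under 0.05. Socs2, an inhibitor that STAT5 induces, had 441 and 449 in Flt3 KO cDC1, against 311 and 292 in WT cDC1, a difference of 0.56 ± 0.11 (SE, log2; adjusted p = 0.117). Stat4, which carries the IL-12 signal, differed by 0.49 ± 0.11 (adjusted p = 0.155). The groups did not overlap for either gene, as for 11 and 14 genes of these lists that had both Flt3 KO arrays above. In these lists 2 and 1 genes had both below. The shares of all tested genes were 20.4% above and 20.3% below, and those of the 3738 brightest 32.0% and 9.76%. Il21r, the receptor of IL-21, differed by 0.39 ± 0.09 (adjusted p = 0.174), and Il7r, a receptor of lymphoid progenitors, by 0.44 ± 0.13 (adjusted p = 0.249). Of the tested progenitor markers other than Flt3, 0 of 11 were called in limma, with 2 at an unadjusted p under 0.05, and the median was 0.00. Transcription factors of dendritic cells, chemokine receptors, cytokines and chemokines, and the BCL2 family of survival regulators gave 0 calls in limma in 37, 13, 25 and 15 tested genes, with 5, 5, 3 and 3 at an unadjusted p under 0.05 and medians of 0.01, 0.04, 0.08 and 0.03.

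Maturation genes had the highest median of all lists with more than 5 tested genes, while none of them passed alone. These are the genes that dendritic cells induce when they stop sampling antigen and travel to T cell areas. Of 34 tested genes, 25 had both Flt3 KO arrays above both WT arrays and 2 had both below, and 0 were called in limma, with 17 at an unadjusted p under 0.05 where 1873 of all tested genes were. Among all tested genes both Flt3 KO arrays lay above in 20.4% and below in 20.3%. Of the 3738 brightest genes, 32.0% had both above and 9.76% had both below. The median of the list was 0.23, against 0.00 for all tested genes, and 0.19 without WT replicate 1. The list was chosen with earlier results of these data known, so its counts and median are a description only. Anxa3, an annexin, had 490.2 and 535 in Flt3 KO cDC1, against 310 and 347 in WT cDC1, a difference of 0.64 ± 0.12 (SE, log2; adjusted p = 0.0599). Ccr7, the receptor that guides maturing cells to lymphatic tissue, had 2774 and 2870 in Flt3 KO cDC1, against 2381 and 2407 in WT cDC1, a difference of 0.24 ± 0.08 (adjusted p = 0.31). Relb, the NF-kB subunit of mature dendritic cells, differed by 0.31 ± 0.08 (adjusted p = 0.21). The costimulatory genes Cd80, Cd86 and Cd40, the maturation marker Cd83 and the genes Ccl17 and Socs1 were picked with their values known. Cd80, Cd86, Cd40 and Cd83 differed by 0.13, 0.06, 0.11 and 0.04, and Ccl17 and Socs1 by -0.15 each. In cDC2 the median of the list was 0.11, with 27 of 34 changes above 0; Fabp5, a fatty acid-binding protein gene named after its values were seen, was the 1 member called there, where 0.107% of all tested genes were called.

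**Figure D4:**
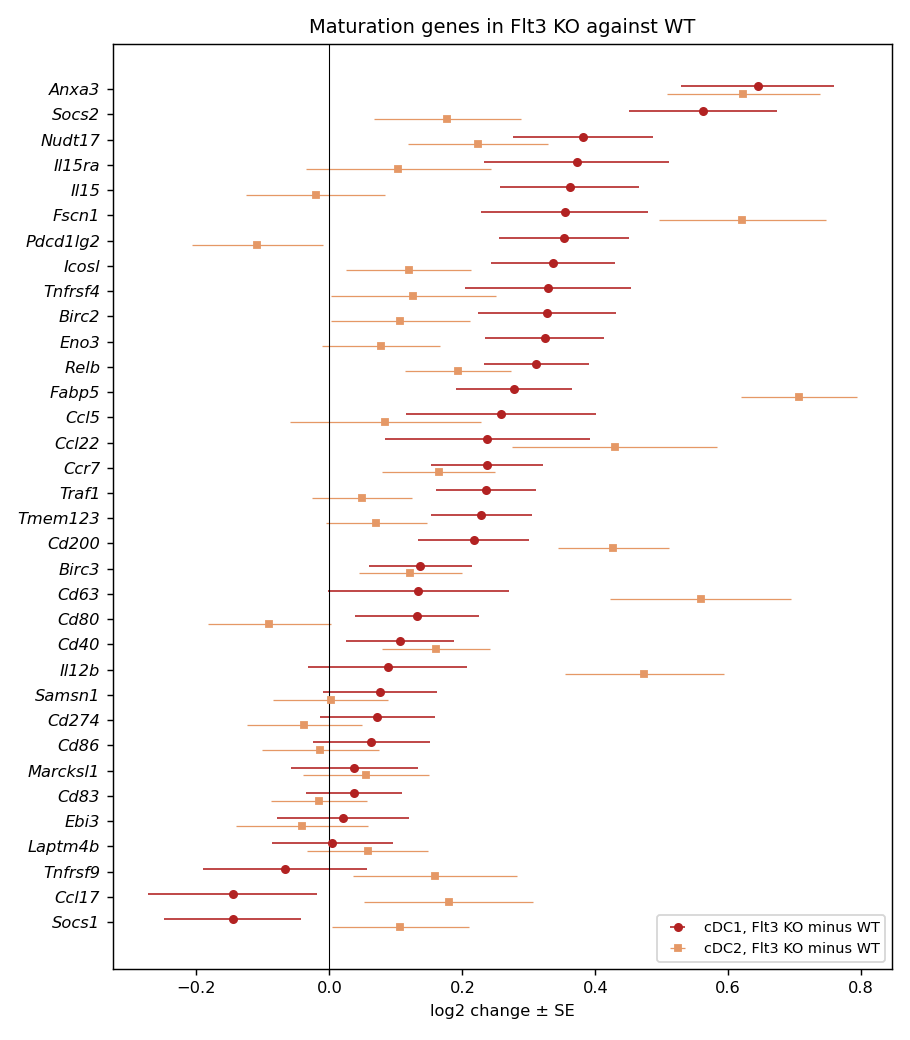
Log2 change ± SE (horizontal axis) of the 34 tested maturation genes in Flt3 KO against WT, in cDC1 (red circles) and cDC2 (orange squares), ordered by the change in cDC1. Nearly the whole list lies above 0 in cDC1, led by Anxa3 and Socs2, while Cd80, Cd86, Cd83 and Cd40 stay close to 0.

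Genes of cholesterol synthesis had the next highest median. Of 20 tested genes 12 had both Flt3 KO arrays above both WT arrays and 0 had both below. The shares were 20.4% and 20.3% of all tested genes, and 32.0% and 9.76% of the 3738 brightest. In limma 0 of the 20 were called, with 7 at an unadjusted p under 0.05, where 1873 of the 14953 tested genes were. The median of the list was 0.15, and 0.08 without WT replicate 1. Like the maturation list, it was chosen with earlier results of these data known, and these values describe it only. Nsdhl, an enzyme that removes methyl groups from sterols, had 344 and 324 in Flt3 KO cDC1, against 227 and 268 in WT cDC1, a difference of 0.44 ± 0.09 (SE, log2; adjusted p = 0.155). Hmgcs1, which makes the precursor of mevalonate, differed by 0.38 ± 0.09 (adjusted p = 0.205), and Msmo1 by 0.45 ± 0.13 (adjusted p = 0.257). Glycolysis genes had a median of 0.04 with 0 of 19 called in limma and 3 at an unadjusted p under 0.05, and the glucose transporter gene Slc2a3 differed by 0.42 ± 0.08 (adjusted p = 0.118). The genes of oxidative phosphorylation had a median of 0.03 over 29 genes, and -0.03 without WT replicate 1.

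No gene of antigen presentation was called. Of 19 genes of MHC class I presentation and 17 of class II presentation 0 were called in limma, with 2 and 2 at an unadjusted p under 0.05 and medians of 0.03 and 0.03. Erap1, which trims peptides for class I, had 392 and 387 in Flt3 KO cDC1, against 333 and 254 in WT cDC1, a difference of 0.42 ± 0.14 (adjusted p = 0.296). Lgmn, a lysosomal protease, differed by 0.28 ± 0.09 (adjusted p = 0.265). Among 16 Toll-like receptor and adaptor genes 0 were called in limma, with 1 at an unadjusted p under 0.05, and Tlr3, which senses double-stranded RNA in cDC1, had 1147 and 992 in Flt3 KO cDC1, against 921 and 1337 in WT cDC1. The C-type lectins held 1 call among 27 tested genes, Cd209a. Clec4b1, a lectin of the same chromosome region as Clec4a4, had 20.7 and 18.7 in Flt3 KO cDC1, against 13.4 and 12.9 in WT cDC1, a difference of 0.58 ± 0.10 (adjusted p = 0.058); these are dim values. Partners of the Fc receptor gamma chain held 1 call in 22 tested genes, Fcer1g itself, and the lectin gene Clec7a, which encodes Dectin-1, differed by 0.24 ± 0.08 (adjusted p = 0.298). Interferon-stimulated genes had a median of -0.06 and 0.00 without WT replicate 1, with 0 of 25 called in limma and 0 at an unadjusted p under 0.05.

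**Figure D5:**
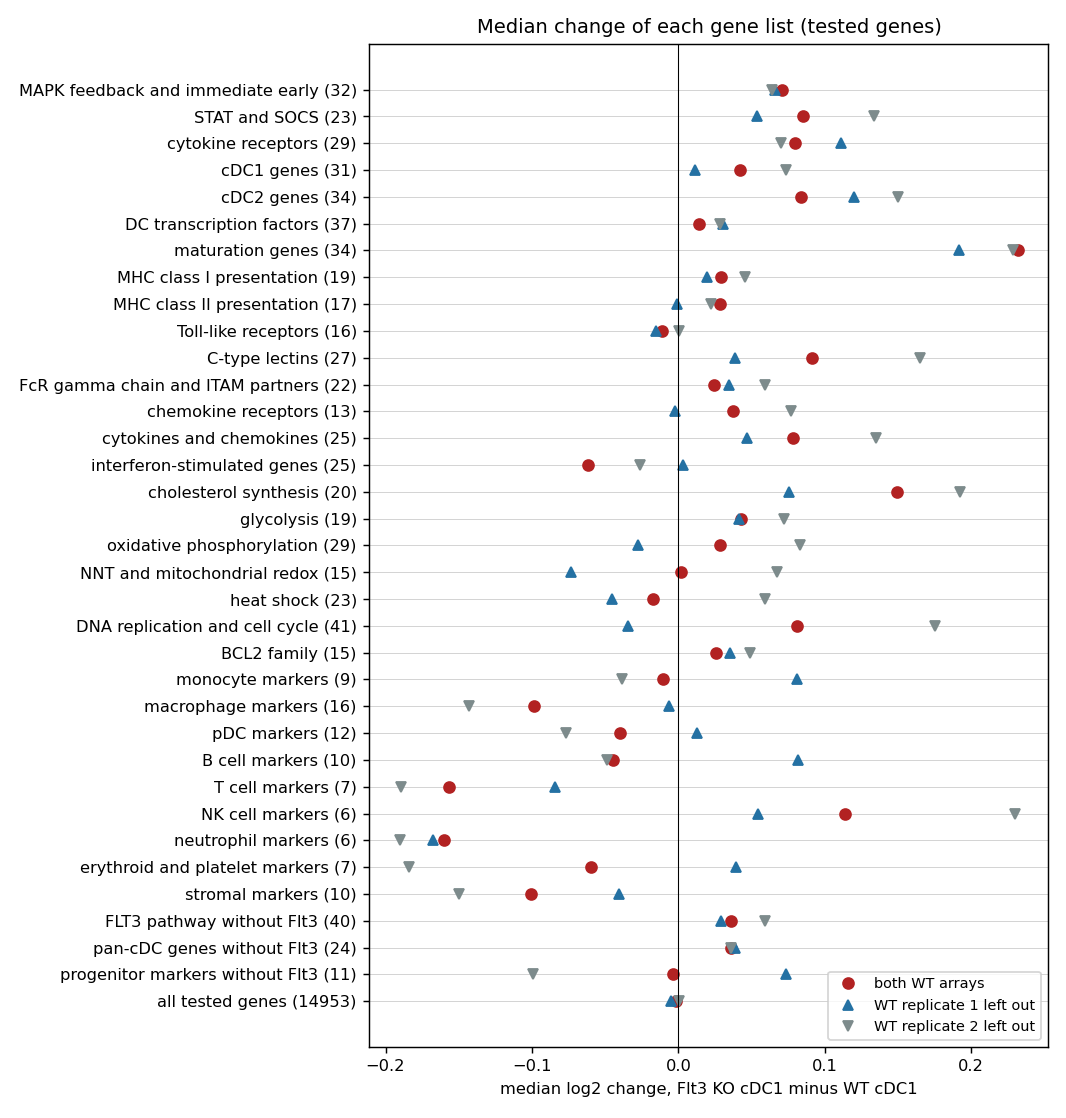
Median log2 change of Flt3 KO cDC1 against WT cDC1 (horizontal axis) over the tested genes of each list, with their number in brackets, using both WT arrays (circles) or with WT replicate 1 (upward triangles) or WT replicate 2 (downward triangles) left out. The maturation list lies at 0.23 with both WT arrays and 0.19 without WT replicate 1, farthest to the right by these marks; without WT replicate 2 it and the NK cell markers both lie at 0.23. Lists such as cell cycle and oxidative phosphorylation change sign when WT replicate 1 is left out.

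Some genes lay close to the threshold, and others differed as much but lay farther from it. Slc7a11, the cystine transporter that feeds glutathione synthesis, had 98.5 and 97.0 in Flt3 KO cDC1, against 55.8 and 63.1 in WT cDC1, a difference of 0.72 ± 0.12 (SE, log2; adjusted p = 0.0519). Plk2, a kinase induced by stress and growth signals, had 136 and 134 in Flt3 KO cDC1, against 73.2 and 94.2 in WT cDC1, a difference of 0.70 ± 0.12 (adjusted p = 0.0519). Cd69, an early activation marker that holds cells in tissue, had 155 and 172 in Flt3 KO cDC1, against 82.3 and 112 in WT cDC1, a difference of 0.77 ± 0.13 (adjusted p = 0.058). For Plk2 and Cd69 the lower WT value came from replicate 1, and without it the differences were 0.52 and 0.54. The inflammatory caspase gene Casp1 and the glycosyltransferase gene Mgat4a depended on that array more. Their differences of 0.70 and 0.70 (adjusted p = 0.174 and 0.21 in limma) became 0.35 and 0.31 without it. Spic, a transcription factor gene of red pulp macrophages, and Atxn1, a repressor of transcription, differed by 0.82 ± 0.21 and 0.81 ± 0.20 (adjusted p = 0.21 and 0.195). St8sia6, a sialyltransferase gene, and Cxcl2, a chemokine gene, differed by 0.66 ± 0.15 and 0.62 ± 0.13 (adjusted p = 0.171 and 0.143). On the lower side, Arhgap42, a GTPase-activating protein, had 201 and 223 in Flt3 KO cDC1, against 282 and 382 in WT cDC1, a difference of -0.63 ± 0.13 (adjusted p = 0.13), and of -0.85 without WT replicate 1, where it passed (adjusted p = 0.0415). Hic1, a transcriptional repressor, had 108 and 107 in Flt3 KO cDC1, against 144 and 162 in WT cDC1, a difference of -0.51 ± 0.10 (adjusted p = 0.109).

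Whether an effect of receptor loss was particular to cDC1 was tested with an interaction term, which sets the change in cDC1 against that in cDC2. These changes share no array, but the labels do not say whether cDC1 and cDC2 arrays share mice. No gene passed, which is 0%, while 1342 genes had an unadjusted p under 0.05; without WT cDC1 replicate 2 the number of calls was 170. In cDC2, where 0.107% of genes were called, Flt3 fell by 2.30 and Lnx2 fell by 0.81 on the log2 scale, with adjusted p of 3.17e-09 and 0.0244 in limma. Together with Nnt these were the 3 of the 12 genes called in both cell types, and 10 of the 12 had log2 values of the same sign in both, with Cd209a, at 0.00 in cDC2, counted among them. Polr1d, Hsph1 and Rfc3 differed by -0.37, -0.66 and 0.37 in cDC2 (adjusted p = 0.193, 0.073 and 0.287). Cd209a and Fcer1g differed by 0.00 and 0.05 there, and Gpr141 and Lpp by -0.29 and -0.14. The change in cDC1 minus that in cDC2 was 1.07 ± 0.15 for Gpr141, 0.76 ± 0.12 for Lpp and 0.92 ± 0.18 for Cd209a (SE, log2), with adjusted p of 0.106, 0.109 and 0.269. A difference between the cell types was thus not shown for any of them at this precision; with a trended and robust variance prior Gpr141 and Lpp passed (adjusted p = 0.0158 and 0.0244), and Gpr141 also without Flt3 KO cDC1 replicate 2 (adjusted p = 0.0166). For Lnx2 the difference of the changes was -0.58 ± 0.16 and for Nnt 0.18 ± 0.13 (adjusted p = 0.458 and 0.658).

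Flt3L KO cDC1 were taken by their label alone, since Flt3l was not lower there than in WT cDC1. Loss of the receptor was then set directly against loss of its ligand, as Flt3 KO cDC1 minus Flt3L KO cDC1, which uses no WT array. In this contrast 99 genes were higher in Flt3 KO cDC1 (0.662% of those tested) and 33 were lower (0.221%). Of the 12 genes, 6 differed. Flt3 had 357 and 370 in Flt3 KO cDC1, against 2426 and 2456 in Flt3L KO cDC1 (-2.75 ± 0.07), and Lnx2 was lower too, with 138 and 143 in Flt3 KO cDC1 against 359 and 462 in Flt3L KO cDC1 (-1.54 ± 0.12, adjusted p = 4.81e-05). Polr1d had 734 and 778 in Flt3 KO cDC1, against 1038 and 1025 in Flt3L KO cDC1 (-0.45 ± 0.08, adjusted p = 0.0306), and Adam11 had 116 and 98.8 in Flt3 KO cDC1, against 171 and 163 in Flt3L KO cDC1 (-0.64 ± 0.08, adjusted p = 0.00476). Rfc3 and Cd209a were higher in Flt3 KO cDC1, by 0.48 ± 0.10 and 0.71 ± 0.13 (adjusted p = 0.0494 and 0.0299). Cd209a had 225 and 223 in Flt3 KO cDC1, against 164 and 115 in Flt3L KO cDC1. Nnt and Fcer1g differed by 0.10 ± 0.09 and -0.01 ± 0.09 (adjusted p = 0.654 and 0.968), with 447 and 436 for Fcer1g in Flt3 KO cDC1 and 473 and 418 in Flt3L KO cDC1.

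Against the same WT cDC1 arrays, which the comparisons of both knockouts share, 1.19% of genes were called in Flt3L KO cDC1, and 4 of the 12 genes were among them, all higher. The log2 changes of Flt3 KO cDC1 and Flt3L KO cDC1 were 1.57 and 1.47 for Nnt, 0.64 and 1.28 for Adam11, 0.59 and 0.60 for Fcer1g, and 0.62 and 0.46 for Lpp. For Lnx2 they were -1.40 and 0.14, and for Cd209a 0.92 and 0.21. Other genes also separated the knockouts directly. Cxcl2, which attracts neutrophils, had 233 and 227 in Flt3 KO cDC1, against 94.4 and 110 in Flt3L KO cDC1 (1.17 ± 0.13, adjusted p = 0.00109). Ms4a1, which encodes the B cell antigen CD20, had 133 and 166 in Flt3 KO cDC1, against 63.2 and 77.6 in Flt3L KO cDC1 (1.08 ± 0.13, adjusted p = 0.00188), and Fcrla, an Fc receptor-like gene of B cells, had 365 and 362 in Flt3 KO cDC1, against 136 and 175 in Flt3L KO cDC1 (1.24 ± 0.13, adjusted p = 0.000613). These were the 2 called of 10 tested B cell markers; by their means 4 of the 10 were higher in Flt3 KO cDC1 and 6 lower, with a list median of -0.04. The lectin gene Cd209e and the transcription factor gene Prdm1 were also higher in Flt3 KO cDC1, by 0.70 ± 0.09 and 0.62 ± 0.11 (adjusted p = 0.005 and 0.0232). The 132 calls of this contrast became 20 without Flt3 KO cDC1 replicate 1, 16 without Flt3 KO cDC1 replicate 2, 17 without Flt3L KO cDC1 replicate 1 and 63 without Flt3L KO cDC1 replicate 2.

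Markers of other cell types were read as well, since a sort can let other cells through. In Flt3 KO cDC1 against WT cDC1, none of the tested monocyte, macrophage, plasmacytoid dendritic cell, B cell, T cell, NK cell, neutrophil, erythroid or stromal markers was called in limma, with 1 of 9, 5 of 16, 1 of 12, 2 of 10, 2 of 7, 1 of 6, 2 of 6, 0 of 7 and 1 of 10 at an unadjusted p under 0.05. The summed intensity of the 13 B cell markers with a value was 1055 and 1087 in Flt3 KO cDC1, against 967 and 986 in WT cDC1. Of the 10 tested, 3 had both Flt3 KO arrays above and 2 had both below, against 20.4% and 20.3% of all tested genes. This list was dimmer, with a median log2 level of 6.31 against 6.75 for all tested genes. The shares were 5.56% and 34.2% in the 3739 dimmest genes, and 12.9% and 26.4% in the next 3738. Fcrla made up part of that sum, with 365 and 362 in Flt3 KO cDC1, against 296 and 299 in WT cDC1 (0.29 ± 0.13, adjusted p = 0.383 in limma). In WT cDC2 Fcrla had 43.1 and 44.0. Ms4a1 made up a smaller part, with 133 and 166 in Flt3 KO cDC1, against 92.1 and 110 in WT cDC1 (0.56 ± 0.13, adjusted p = 0.174). Pax5, the defining transcription factor gene of B cells, had 50.2 and 50.1 in Flt3 KO cDC1, against 58.7 and 54.1 in WT cDC1. The 12 monocyte markers summed to 9176 and 9021 in Flt3 KO cDC1, against 8751 and 8981 in WT cDC1, of which Nr4a1 alone gave 6476 and 6499 in Flt3 KO cDC1, against 6125 and 6261 in WT cDC1. The 18 macrophage markers summed to 2371 and 2261 in Flt3 KO cDC1, against 2297 and 2239 in WT cDC1, and C1qb among them, a chain of complement C1q, had 38.8 and 51.1 in Flt3 KO cDC1, against 65.4 and 71.1 in WT cDC1 (-0.61 ± 0.18, adjusted p = 0.264). In the same list Spic and Hmox1, a heme-degrading enzyme, lay on the other side: Spic had 171 and 116 in Flt3 KO cDC1, against 77.2 and 81.5 in WT cDC1, and Hmox1 had 389 and 274 in Flt3 KO cDC1, against 242 and 262 in WT cDC1 (0.38 ± 0.16, adjusted p = 0.382). Of the 16 tested macrophage markers, 3 had both Flt3 KO arrays above and 5 had both below, against 20.4% and 20.3% of all tested genes. The 11 T cell markers summed to 653 and 670.1 in Flt3 KO cDC1, against 704 and 673 in WT cDC1, and the 11 NK cell markers to 1024 and 951 in Flt3 KO cDC1, against 834 and 927 in WT cDC1. In the NK cell sum Klrk1 gave 505 and 452 in Flt3 KO cDC1, against 388 and 444 in WT cDC1. Klrd1, which had 1535 and 1509 in WT cDC2, gave 187 and 160 in Flt3 KO cDC1, against 112 and 139 in WT cDC1. Of 6 tested NK cell markers 2 had both Flt3 KO arrays above and 1 had both below, against 20.4% and 20.3% of all tested genes. The 12 plasmacytoid dendritic cell markers summed to 1732 and 1804 in Flt3 KO cDC1, against 1784 and 1767 in WT cDC1, and the 12 neutrophil markers to 399 and 385 in Flt3 KO cDC1, against 444 and 422 in WT cDC1. The 10 erythroid and platelet markers summed to 434 and 425 in Flt3 KO cDC1, against 497 and 422 in WT cDC1, and the 12 stromal markers to 909 and 914 in Flt3 KO cDC1, against 997 and 899 in WT cDC1. The groups overlapped in the sums of macrophage, plasmacytoid dendritic cell, erythroid and stromal markers. They lay apart, with Flt3 KO cDC1 higher, in the sums of B cell, monocyte and NK cell markers, and, with Flt3 KO cDC1 lower, in those of T cell and neutrophil markers. The tested T cell and neutrophil markers were dim, with median log2 levels of 5.95 and 5.70 against 6.75 for all tested genes. In the 3739 dimmest genes both Flt3 KO arrays lay below both WT arrays in 34.2%. The part of other cells in the changes above was not tested beyond these values.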

How the data were processed

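RNA of mouse spleen cDC1 and cDC2 was measured on 12 GeneChip arrays, 2 for each of 6 groups taken from the sample labels. The authors deposited intensity values on a linear scale for every probe set; the sources used here do not give how these were summarised and normalised. Detection calls were not used. Log2 values were computed from the deposited intensities, with no further normalization. Of 30177 probe sets, 21789 had exactly 1 symbol in the platform annotation, which can be old, 1621 had several, and 6767 were not listed; the last 2 kinds were tested apart. The 21698 symbols that could be checked by Entrez ID in RefSeq needed 0 changes. For the 999 genes with several probe sets the brightest was kept. Of 19938 genes, the dimmest share of 0.25 by mean log2 value was dropped, which kept 14953 with a mean of at least 4.78.

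A model with 1 mean for each group was fitted to all 12 arrays in limma 3.58.1 (R 4.3.3, statmod 1.5.0), leaving 6 residual degrees of freedom, with Benjamini-Hochberg adjustment within each contrast. Tables were prepared in Python 3.11.15 with pandas 2.3.3 and numpy 2.4.6, and the method was tested on simulated data. Lists (35, with 733 genes, 617 tested) are described by counts and medians, with no set test. Sequences and gene order come from RefSeq, build GRCm38.p6. The members and lists were chosen with earlier results of these data known.

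Genes are named by a rule: Flt3 and Flt3l; every called gene; the 10 largest rises and 10 largest falls among genes not called, with an unadjusted p under 0.01 and groups that do not overlap; up to 4 members of each list with the smallest p; markers of identity; and the 10 tested genes on either side of Flt3. Predicted genes, small RNAs and antigen receptor segments were not named. The alternatives tried were no filter, a dropped share of 0.5, quantile normalization, a robust trended variance prior, averaged probe sets, a fit of the compared groups only, a replicate block, and leaving out single arrays. A block with crossed numbers was added after the data were seen.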

Additional observations from a re-analysis of the deposited data

How the results depend on the processing

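No called change of a named gene turned its direction under these alternatives. The 12 genes called in Flt3 KO cDC1 against WT cDC1 became 22 with a share of 0.5 of the dim genes dropped, 35 with a robust trended variance prior, 7 with averaged probe sets, 3 (Flt3, Nnt and Lnx2) with only the groups compared and 3 to 1132 without single arrays. The 0 genes whose effect differed between cDC1 and cDC2 in limma (1342 at an unadjusted p under 0.05) became 5 with the trended prior (Gpr141, Lpp, and, named after their values were seen, C1qa, Lyz2 and Serpinb10) and 0 to 170 without single arrays, the highest without WT cDC1 replicate 2. The 132 genes that differed between Flt3 KO and Flt3L KO cDC1 became 86 with no filter, 267 with a share of 0.5 dropped, 401 with the trended prior, 78 with only the groups compared and 16 to 63 without single arrays. Where 1 array was left out, the lone array of its group was assumed to vary like the other groups. The labels do not say that replicate numbers pair samples. With the replicate number as a block the calls were 15, 0 and 103 in these 3 contrasts, and Tmem176a was lost. Tmem176a was also lost with quantile normalization, and with no filter, where Hsph1 and Rfc3 were lost too. In all, Tmem176a was called under 4 of the 12 alternatives. The replicate differences of Flt3 KO cDC1 and WT cDC1 correlated at -0.17 across genes. Those of cDC1 and cDC2 correlated at 0.16 in WT, 0.09 in Flt3 KO and 0.15 in Flt3L KO. Between Flt3 KO cDC2 and Flt3L KO cDC2 the value was 0.17. With the WT numbers crossed in the block, added after the data were seen, the calls were 20, 1 and 236. The causes of these shifts were not tested. Fold changes of dim genes may be understated where background remains in both groups.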
